A study of Mus musculus with 30 samples.

Results

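The enzymes that break down fatty acids in mitochondria and in peroxisomes, with the carriers and assembly proteins they depend on, were followed in mouse kidneys exposed to aristolochic acid I (AAI), the nephrotoxic and carcinogenic plant acid behind aristolochic acid nephropathy. The set held 35 genes named by symbol, and each was looked up among the array's transcript clusters through the platform annotation. Of these, 34 were measured among 22139 transcript clusters tested, 1 cluster a gene. They were 16 genes of mitochondria, 13 of peroxisomes and 5 whose products are placed in more than 1 compartment. Etfb, the beta subunit of the electron transfer flavoprotein, was not analysed here.

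Kidney RNA came from male C57BL/6 mice aged 9 to 11 weeks that carried 2 functional copies of Trp53 (Trp53(+/+)), 1 copy (Trp53(+/-)) or none (Trp53(-/-)). The null allele is a whole-body one in which a neomycin cassette takes the place of part of the gene, so the loss is not limited to 1 cell type. AAI was injected intraperitoneally at 3.5 mg per kg body weight each day for 6 days, controls received water in the same way, and tissue was taken 24 h after the last dose. Each of the 6 groups of genotype and treatment had 5 mice, each measured on 1 array (30 in all). All groups shared the strain, the sex, the age range and the injections. Each array was made from a portion of kidney, so it averages over all cell types, and in such bulk tissue fewer cells of a type cannot be told apart from less RNA per cell. Trp53 transcript was not analysed here. The purpose of the design was to ask how p53 status changes the response to AAI.

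In mitochondria, long acyl chains enter through the carnitine shuttle (Cpt1a on the outer membrane, Cpt2 on the inner) and are then shortened by repeated rounds of dehydrogenation, hydration, a further dehydrogenation and thiolysis. Peroxisomes run the same kinds of reaction with separate enzymes: the first step is catalysed by acyl-CoA oxidases, and the pathway handles very long, branched and dicarboxylic chains before handing shortened products to mitochondria. In the kidney the proximal tubule is rich in both organelles, its cells rely on fatty acids as their main fuel, and AAI is known for damage to that segment.

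To show what sequence the gene starts hold, windows of 300 bases around each RefSeq transcription start in GRCm38.p6 were read; 31 of the 35 genes had one. The first 3 below belong to Slc27a2 and Acadm, which fell in all 3 genotypes, and to Cpt1a, which passed in none. They are shown because all 3 carry the nuclear receptor half-site AGGTCA on one strand or the other, in capitals.
Slc27a2, chr2:126552774-126553073, plus strand: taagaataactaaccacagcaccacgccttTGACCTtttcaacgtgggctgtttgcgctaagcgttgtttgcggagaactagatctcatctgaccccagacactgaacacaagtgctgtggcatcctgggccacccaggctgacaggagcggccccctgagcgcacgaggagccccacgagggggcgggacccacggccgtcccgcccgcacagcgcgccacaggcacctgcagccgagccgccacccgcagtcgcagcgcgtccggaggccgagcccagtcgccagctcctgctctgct
Acadm, chr3:153944594-153944893, minus strand: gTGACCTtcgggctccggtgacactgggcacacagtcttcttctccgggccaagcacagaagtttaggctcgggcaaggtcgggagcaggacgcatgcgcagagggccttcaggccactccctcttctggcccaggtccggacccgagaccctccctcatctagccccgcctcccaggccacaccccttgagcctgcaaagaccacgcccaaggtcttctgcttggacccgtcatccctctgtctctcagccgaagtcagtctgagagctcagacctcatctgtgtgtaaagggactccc
Cpt1a, chr19:3323051-3323350, plus strand: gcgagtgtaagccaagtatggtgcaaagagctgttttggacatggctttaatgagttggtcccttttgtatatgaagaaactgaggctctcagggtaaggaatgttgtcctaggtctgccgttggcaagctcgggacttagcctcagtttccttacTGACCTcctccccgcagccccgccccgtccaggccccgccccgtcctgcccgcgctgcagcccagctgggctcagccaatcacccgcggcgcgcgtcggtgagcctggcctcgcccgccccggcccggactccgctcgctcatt

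The half-site was present in 6 of the 35 windows of these genes (17.1%), those of Slc27a2, Acadm, Scp2, Echs1, Acadvl and Cpt1a, and in 16.3% of all 32851 windows. The paired form of this site with 1 base between, AGGTCANAGGTCA, was in none of the 35 windows and in 0.0396% of all windows, and its looser spelling AGGNCANAGGNCA was in none of them and in 0.381% of all. TCAAGGTCA, the element named for the estrogen-related receptors, was in none and in 0.423% of all. All motifs were searched on both strands, and AGGTCA lies within TCAAGGTCA and within the strict paired form. GGGCGG, the GC box, was in 26 of the 35 windows (74.3%) and in 35.7% of all windows, and CCAAT was in 14 (40%) and in 37.4% of all. These are matches of letters in a short window, given as a description.

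Eci3 and Eci2 lie side by side on chromosome 13 and encode closely related enoyl-CoA isomerases, and their windows are printed because their responses to AAI differed in size. Capitals mark GGGCGG on either strand, which occurs 1 time in the Eci3 window and 3 times in the Eci2 window.
Eci3, chr13:34963760-34964059, minus strand: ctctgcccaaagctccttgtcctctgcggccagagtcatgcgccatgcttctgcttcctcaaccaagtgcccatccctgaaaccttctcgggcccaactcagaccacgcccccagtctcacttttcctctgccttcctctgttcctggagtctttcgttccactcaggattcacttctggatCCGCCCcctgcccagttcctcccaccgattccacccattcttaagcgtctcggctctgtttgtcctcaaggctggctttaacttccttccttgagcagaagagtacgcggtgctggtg
Eci2, chr13:34994095-34994394, minus strand: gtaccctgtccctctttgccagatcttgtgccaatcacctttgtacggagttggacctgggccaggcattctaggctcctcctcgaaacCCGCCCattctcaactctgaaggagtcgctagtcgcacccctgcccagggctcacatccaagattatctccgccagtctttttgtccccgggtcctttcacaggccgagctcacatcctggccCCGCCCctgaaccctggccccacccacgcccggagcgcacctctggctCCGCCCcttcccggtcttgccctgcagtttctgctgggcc

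Hadha and Hadhb, the alpha and beta subunits of the mitochondrial trifunctional protein, start head to head on chromosome 5. The window of Hadhb, chr5:30155003-30155302 on the plus strand, overlaps that of Hadha over chr5:30155003-30155230, and the shared bases are in capitals. This pair is shown because the genes share a start region and encode subunits of 1 protein.
Hadha, chr5:30154931-30155230, minus strand: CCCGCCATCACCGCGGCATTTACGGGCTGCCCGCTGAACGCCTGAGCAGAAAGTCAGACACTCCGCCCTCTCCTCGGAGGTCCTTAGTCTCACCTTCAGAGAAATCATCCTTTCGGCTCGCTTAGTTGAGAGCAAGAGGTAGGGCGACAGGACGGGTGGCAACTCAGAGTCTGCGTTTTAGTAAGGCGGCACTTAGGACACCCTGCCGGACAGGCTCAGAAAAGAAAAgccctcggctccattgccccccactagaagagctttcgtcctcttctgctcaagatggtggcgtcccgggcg

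The deposited values were log2 signals. Array medians lay between 5.88 and 5.99, and the arrays of a group correlated with each other at 0.976 to 0.989. All 19 proximal tubule markers measured had a mean signal of 7.80 to 12.40 in water kidneys, above the 5.94 median of all values. Complementary DNA was made in 2 batches. By the marks of the study's clustering figure, batch 1 held 4 of the 5 AAI-exposed Trp53(+/+) kidneys, all Trp53(+/+) water kidneys and all AAI-exposed Trp53(+/-) kidneys, and batch 2 held the other 16 arrays. Thus batch and treatment cannot be told apart in Trp53(+/-) kidneys, whereas the Trp53(-/-) comparison lay wholly within batch 2 and that of Trp53(+/+) almost wholly within batch 1. Among the arrays, 2 stood apart for these genes: Trp53(+/+) water replicate 1, low for 7 members, and Trp53(-/-) AAI replicate 5, high for 5.

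Most of the set was lower in AAI-exposed than in water kidneys of every genotype, and no member was called higher. In Trp53(+/-) kidneys this difference cannot be told apart from batch. At an adjusted p under 0.05 over all genes tested (limma, Benjamini-Hochberg), 29 of the 34 genes fell in Trp53(+/+) kidneys, where 12% of all genes fell. In Trp53(+/-) kidneys 19 fell, against a background of 3.81%, and in Trp53(-/-) kidneys 27 fell, against 10.9%. No member rose in any genotype, while 15.2% of all genes rose in Trp53(+/+) mice, 3.53% in Trp53(+/-) mice and 15.5% in Trp53(-/-) mice. A fall of at least 2-fold was reached by 11 members in Trp53(+/+) (background 2.67%), 5 in Trp53(+/-) (0.79%) and 13 in Trp53(-/-) kidneys (2.83%). In all 3 genotypes 18 members fell, and 2, Cpt1a and Hadha, fell in none. The share of all genes that fell in all 3 was not computed.

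The calls rested on more than single arrays for most members. Leaving out each of the 30 arrays in turn, 22 of the 29 Trp53(+/+) calls, 14 of the 19 Trp53(+/-) calls and 24 of the 27 Trp53(-/-) calls held every time. Those that were lost without at least 1 array were Acaa2, Acadsb, Crat, Decr2, Eci2, Hadhb and Pex5 in Trp53(+/+), Acad11, Acadl, Cpt2, Echs1 and Pex11a in Trp53(+/-), and Acadvl, Eci1 and Pex5 in Trp53(-/-) kidneys. Acadsb was lost without Trp53(+/+) AAI replicate 1 alone (-0.39, adjusted p = 0.0579) and Pex11a without Trp53(+/-) AAI replicate 5 alone (-0.55, adjusted p = 0.0552). Echs1 was lost without Trp53(+/-) AAI replicate 2 or replicate 4 (-0.45 to -0.44, adjusted p = 0.0514 to 0.0565), and each of the others when any 1 of 4 to 20 arrays was left out. Cpt1a passed in Trp53(-/-) kidneys without AAI replicate 4 of that genotype (-0.43, adjusted p = 0.0493), and Acadvl passed in Trp53(+/+) kidneys without AAI replicate 4 (-0.36, adjusted p = 0.0186). With the batch as a term, which needs the 1 batch 2 array among the AAI-exposed Trp53(+/+) kidneys to be assigned, 22 to 28 members passed in Trp53(+/+) and 27 to 29 in Trp53(-/-) kidneys over the 5 possible assignments, whereas 17, 0, 0, 1 and 0 passed in Trp53(+/-) kidneys with replicate 1, 2, 3, 4 and 5 in batch 2. Every other group lay wholly in 1 batch, so this term rests on the assigned array against the other 4 of its group. It therefore also carries the spread between single mice.

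**Figure D1:**
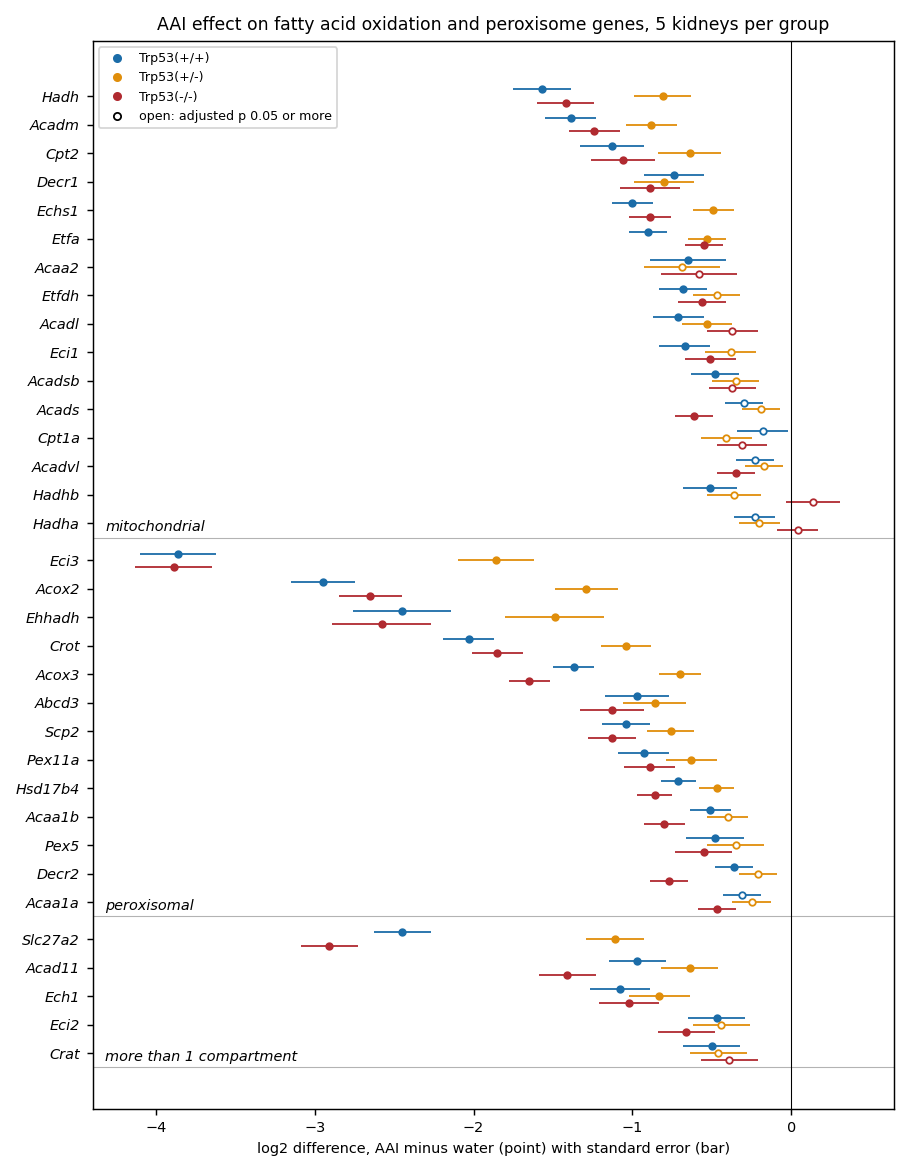
AAI minus water log2 difference (horizontal axis, points with SE bars) of the 34 measured genes in Trp53(+/+), Trp53(+/-) and Trp53(-/-) kidneys, 5 mice a group, grouped by compartment; filled points passed at an adjusted p under 0.05. Peroxisomal genes reach -3.89 (Eci3 in Trp53(-/-)), and the points nearest 0 or above it include those of Hadha, Hadhb, Cpt1a and Acadvl.

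The deepest fall was peroxisomal. Eci3, an enoyl-CoA isomerase that moves double bonds of unsaturated chains into place for peroxisomal oxidation, lost more signal than any other member in each genotype. Eci3 gave log2 signals of 5.69, 7.48, 6.84, 6.73 and 6.30 in AAI-exposed Trp53(+/+) kidneys, against 9.86, 10.70, 10.56, 10.62 and 10.60 in water kidneys of that genotype. Eci3 in Trp53(+/-) mice read 8.82, 7.22, 8.30, 8.09 and 8.33 with AAI, against 9.78, 10.18, 9.99, 10.01 and 10.11 with water. Eci3 in Trp53(-/-) mice read 5.92, 6.37, 5.71, 5.97 and 6.30 with AAI, against 9.69, 10.25, 9.84, 10.15 and 9.80 with water. In each genotype every AAI kidney was below every water kidney, and the AAI kidneys with 1 Trp53 copy lay mostly above those of the other genotypes. With the log2 difference and its SE in parentheses, the fall of Eci3 was 14.5-fold in Trp53(+/+) kidneys (-3.86 ± 0.24, adjusted p = 4.22e-13), 3.64-fold in Trp53(+/-) kidneys (-1.86 ± 0.24, adjusted p = 1.41e-05) and 14.8-fold in Trp53(-/-) kidneys (-3.89 ± 0.24, adjusted p = 2.11e-13). Its neighbour Eci2 is similar in sequence, so part of the signal of either may come from the other's transcript.

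Acox2 encodes the branched-chain acyl-CoA oxidase, which also shortens the side chain of bile acid precursors. Acox2 gave log2 signals of 6.36, 7.76, 6.80, 6.78 and 6.72 in AAI-exposed Trp53(+/+) kidneys, against 10.10, 9.66, 9.74, 9.78 and 9.89 in water kidneys of that genotype. Acox2 in Trp53(+/-) mice read 8.44, 7.36, 8.66, 7.96 and 7.79 with AAI, against 9.25, 9.36, 9.30, 9.29 and 9.45 with water. Acox2 in Trp53(-/-) mice read 6.40, 6.79, 6.10, 6.64 and 6.10 with AAI, against 9.09, 9.11, 9.16, 8.97 and 8.95 with water. The groups did not overlap in any genotype. Acox2 was lower with AAI by 7.73-fold in Trp53(+/+) kidneys (-2.95 ± 0.20, adjusted p = 1.48e-12), 2.44-fold in Trp53(+/-) kidneys (-1.29 ± 0.20, adjusted p = 7.06e-05) and 6.27-fold in Trp53(-/-) kidneys (-2.65 ± 0.20, adjusted p = 7.33e-12). Ehhadh, the bifunctional enzyme that hydrates and dehydrogenates straight-chain intermediates, varied more among AAI-exposed Trp53(+/+) and Trp53(-/-) kidneys than Acox2 did. Ehhadh gave log2 signals of 6.54, 7.79, 7.54, 8.45 and 8.45 in AAI-exposed Trp53(+/+) kidneys, against 9.19, 10.43, 10.26, 10.67 and 10.43 in water kidneys of that genotype. Ehhadh in Trp53(+/-) mice read 8.60, 7.87, 8.46, 7.87 and 8.07 with AAI, against 9.35, 9.57, 9.36, 9.99 and 10.04 with water. Ehhadh in Trp53(-/-) mice read 6.38, 6.88, 6.41, 7.23 and 8.14 with AAI, against 9.30, 9.77, 9.88, 9.73 and 9.28 with water. Even so, each genotype's AAI kidneys all lay below its water kidneys. Ehhadh fell by 5.45-fold in Trp53(+/+) kidneys (-2.45 ± 0.31, adjusted p = 1.72e-07), 2.81-fold in Trp53(+/-) kidneys (-1.49 ± 0.31, adjusted p = 0.00175) and 6-fold in Trp53(-/-) kidneys (-2.58 ± 0.31, adjusted p = 6.22e-08).

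Genes at both ends of the peroxisomal pathway fell as well. Slc27a2 takes up and activates very long chains at the plasma membrane, the endoplasmic reticulum and the peroxisome. Slc27a2 gave log2 signals of 9.23, 9.98, 9.98, 9.11 and 9.66 in AAI-exposed Trp53(+/+) kidneys, against 11.62, 12.22, 12.16, 12.12 and 12.09 in water kidneys of that genotype. Slc27a2 in Trp53(+/-) mice read 10.84, 9.87, 11.12, 10.39 and 10.31 with AAI, against 11.43, 11.64, 11.68, 11.63 and 11.69 with water. Slc27a2 in Trp53(-/-) mice read 9.00, 9.04, 8.30, 8.59 and 8.55 with AAI, against 11.53, 11.64, 11.62, 11.70 and 11.55 with water. AAI and water kidneys were separated in every genotype. The loss of Slc27a2 was 5.47-fold in Trp53(+/+) kidneys (-2.45 ± 0.18, adjusted p = 7.77e-12), 2.16-fold in Trp53(+/-) kidneys (-1.11 ± 0.18, adjusted p = 0.00015) and 7.52-fold in Trp53(-/-) kidneys (-2.91 ± 0.18, adjusted p = 2.9e-13). Crot transfers shortened chains to carnitine for export from the peroxisome. Crot gave log2 signals of 7.21, 7.78, 7.79, 7.95 and 7.95 in AAI-exposed Trp53(+/+) kidneys, against 9.56, 9.87, 9.79, 9.73 and 9.87 in water kidneys of that genotype. Crot in Trp53(+/-) mice read 8.91, 7.95, 8.73, 8.26 and 8.30 with AAI, against 9.15, 9.62, 9.30, 9.43 and 9.83 with water. Crot in Trp53(-/-) mice read 7.60, 7.91, 7.34, 7.50 and 7.27 with AAI, against 9.14, 9.59, 9.37, 9.42 and 9.35 with water. These groups were also separate. Crot fell 4.08-fold in Trp53(+/+) kidneys (-2.03 ± 0.16, adjusted p = 1.85e-11), 2.05-fold in Trp53(+/-) kidneys (-1.04 ± 0.16, adjusted p = 7.25e-05) and 3.6-fold in Trp53(-/-) kidneys (-1.85 ± 0.16, adjusted p = 1.03e-10).

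Acox3, a further branched-chain oxidase, showed little spread within groups. Acox3 gave log2 signals of 6.66, 6.70, 6.98, 6.56 and 6.74 in AAI-exposed Trp53(+/+) kidneys, against 7.89, 8.42, 8.10, 7.91 and 8.17 in water kidneys of that genotype. Acox3 in Trp53(+/-) mice read 7.40, 7.30, 7.06, 6.92 and 7.23 with AAI, against 7.85, 8.26, 7.82, 7.77 and 7.72 with water. Acox3 in Trp53(-/-) mice read 6.32, 6.49, 6.41, 6.62 and 6.32 with AAI, against 7.88, 8.50, 7.99, 8.30 and 7.75 with water. No AAI kidney overlapped a water kidney of its genotype. The Acox3 fall was 2.59-fold in Trp53(+/+) kidneys (-1.37 ± 0.13, adjusted p = 8.91e-10), 1.62-fold in Trp53(+/-) kidneys (-0.70 ± 0.13, adjusted p = 0.000658) and 3.14-fold in Trp53(-/-) kidneys (-1.65 ± 0.13, adjusted p = 2.79e-11).

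**Figure D2:**
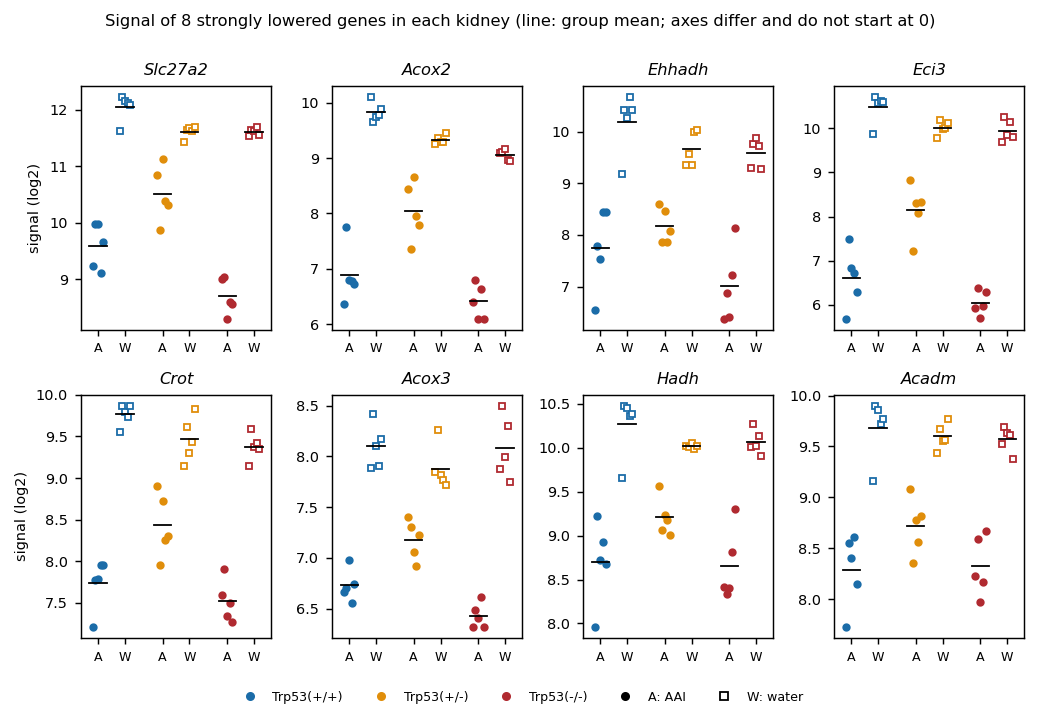
Log2 signal (vertical axis) in each of the 30 kidneys for Slc27a2, Acox2, Ehhadh, Eci3, Crot, Acox3, Hadh and Acadm, by genotype with AAI left of water; points are mice and lines are group means (n = 5). In each panel and genotype all AAI kidneys lie below all water kidneys, and in each panel the AAI points average highest in Trp53(+/-).

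The other peroxisomal members had smaller differences in Trp53(+/+) and Trp53(-/-) kidneys. Hsd17b4, the D-specific bifunctional enzyme, which serves branched and very long chains, fell by a log2 difference of -0.71 in Trp53(+/+) kidneys (adjusted p = 9.48e-06), -0.47 in Trp53(+/-) kidneys (adjusted p = 0.00654) and -0.86 in Trp53(-/-) kidneys (adjusted p = 3.66e-07), with signals of 7.69 to 8.40 over the AAI kidneys and 8.55 to 8.99 over the water kidneys. Scp2, whose long form is the thiolase for branched chains, gave -1.04 in Trp53(+/+) kidneys (adjusted p = 1.07e-06), -0.76 in Trp53(+/-) kidneys (adjusted p = 0.000723) and -1.13 in Trp53(-/-) kidneys (adjusted p = 2.26e-07), with signals of 6.84 to 7.88 over the AAI kidneys and 8.03 to 8.72 over the water kidneys. Abcd3, the membrane transporter for branched and dicarboxylic acyl-CoA, gave -0.97 in Trp53(+/+) kidneys (adjusted p = 0.000231), -0.86 in Trp53(+/-) kidneys (adjusted p = 0.00388) and -1.13 in Trp53(-/-) kidneys (adjusted p = 2.88e-05), with signals of 8.11 to 9.11 over the AAI kidneys and 8.59 to 9.88 over the water kidneys. All 3 fell in every genotype, and none had overlapping AAI and water kidneys within a genotype. The 2 thiolases Acaa1a and Acaa1b are near-identical copies, and the array may not fully separate them. Acaa1a had differences of -0.31 in Trp53(+/+) kidneys (adjusted p = 0.0564), -0.25 in Trp53(+/-) kidneys (adjusted p = 0.309) and -0.47 in Trp53(-/-) kidneys (adjusted p = 0.0032), with signals of 6.26 to 7.15 over the AAI kidneys and 6.68 to 7.13 over the water kidneys. Acaa1b had -0.51 in Trp53(+/+) kidneys (adjusted p = 0.00236), -0.40 in Trp53(+/-) kidneys (adjusted p = 0.0542) and -0.80 in Trp53(-/-) kidneys (adjusted p = 9.89e-06), with signals of 7.60 to 8.59 over the AAI kidneys and 8.17 to 8.94 over the water kidneys. Acaa1a therefore passed in Trp53(-/-) kidneys alone and Acaa1b in Trp53(+/+) and Trp53(-/-) kidneys.

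Decr2, the peroxisomal dienoyl-CoA reductase for unsaturated chains, had differences of -0.36 in Trp53(+/+) kidneys (adjusted p = 0.0282), -0.21 in Trp53(+/-) kidneys (adjusted p = 0.499) and -0.77 in Trp53(-/-) kidneys (adjusted p = 1.09e-05), with signals of 7.10 to 8.04 over the AAI kidneys and 7.73 to 8.32 over the water kidneys. It passed in both Trp53(+/+) and Trp53(-/-) kidneys. Pex11a, which promotes peroxisome division, fell in all genotypes, with log2 differences of -0.93 in Trp53(+/+) kidneys (adjusted p = 4.06e-05), -0.63 in Trp53(+/-) kidneys (adjusted p = 0.0122) and -0.89 in Trp53(-/-) kidneys (adjusted p = 7.45e-05), with signals of 5.85 to 6.71 over the AAI kidneys and 6.54 to 7.45 over the water kidneys. Pex5, the receptor that carries enzymes into the organelle, had -0.48 in Trp53(+/+) kidneys (adjusted p = 0.0416), -0.35 in Trp53(+/-) kidneys (adjusted p = 0.352) and -0.55 in Trp53(-/-) kidneys (adjusted p = 0.0199), with signals of 4.31 to 5.67 over the AAI kidneys and 4.91 to 5.85 over the water kidneys. Every Pex5 signal lay below the 5.94 median of all values. Of the 13 peroxisomal genes, 12 fell in Trp53(+/+) mice, 9 in Trp53(+/-) mice and 13 in Trp53(-/-) mice.

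In mitochondria the largest falls were those of Hadh and Acadm. Hadh is the dehydrogenase of the step before thiolysis for medium and short chains. Hadh gave log2 signals of 7.96, 9.22, 8.72, 8.93 and 8.68 in AAI-exposed Trp53(+/+) kidneys, against 9.66, 10.48, 10.45, 10.36 and 10.39 in water kidneys of that genotype. Hadh in Trp53(+/-) mice read 9.56, 9.06, 9.23, 9.18 and 9.01 with AAI, against 10.02, 10.01, 10.06, 9.99 and 10.02 with water. Hadh in Trp53(-/-) mice read 8.41, 8.33, 8.40, 8.81 and 9.30 with AAI, against 10.01, 10.27, 10.02, 10.13 and 9.91 with water. The lowest water kidney of each genotype lay above its highest AAI kidney. Hadh fell 2.97-fold in Trp53(+/+) kidneys (-1.57 ± 0.18, adjusted p = 3.53e-08), 1.76-fold in Trp53(+/-) kidneys (-0.81 ± 0.18, adjusted p = 0.0035) and 2.67-fold in Trp53(-/-) kidneys (-1.42 ± 0.18, adjusted p = 2.34e-07). Acadm, the medium-chain acyl-CoA dehydrogenase, catalyses the first step for chains of intermediate length. Acadm gave log2 signals of 7.73, 8.55, 8.41, 8.61 and 8.15 in AAI-exposed Trp53(+/+) kidneys, against 9.16, 9.90, 9.86, 9.72 and 9.77 in water kidneys of that genotype. Acadm in Trp53(+/-) mice read 9.08, 8.36, 8.78, 8.56 and 8.82 with AAI, against 9.44, 9.67, 9.55, 9.56 and 9.77 with water. Acadm in Trp53(-/-) mice read 8.23, 8.59, 7.97, 8.17 and 8.67 with AAI, against 9.52, 9.69, 9.63, 9.61 and 9.38 with water. Its groups did not overlap either. For Acadm the fall was 2.63-fold in Trp53(+/+) kidneys (-1.39 ± 0.16, adjusted p = 2.33e-08), 1.84-fold in Trp53(+/-) kidneys (-0.88 ± 0.16, adjusted p = 0.000386) and 2.36-fold in Trp53(-/-) kidneys (-1.24 ± 0.16, adjusted p = 2.07e-07).

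The other acyl-CoA dehydrogenases differed from Acadm in size. Acadl, the long-chain enzyme, had -0.71 in Trp53(+/+) kidneys (adjusted p = 0.000913), -0.53 in Trp53(+/-) kidneys (adjusted p = 0.039) and -0.37 in Trp53(-/-) kidneys (adjusted p = 0.0885), with signals of 7.79 to 9.11 over the AAI kidneys and 8.65 to 9.36 over the water kidneys. Acadvl, bound to the inner membrane for very long chains, had -0.23 in Trp53(+/+) kidneys (adjusted p = 0.18), -0.17 in Trp53(+/-) kidneys (adjusted p = 0.699) and -0.35 in Trp53(-/-) kidneys (adjusted p = 0.0338), with signals of 6.49 to 7.21 over the AAI kidneys and 6.67 to 7.19 over the water kidneys. Acadl passed in Trp53(+/+) and Trp53(+/-) kidneys and Acadvl only in Trp53(-/-) kidneys, which is no test of a difference between genotypes. Acads, for short chains, had -0.30 in Trp53(+/+) kidneys (adjusted p = 0.0616), -0.19 in Trp53(+/-) kidneys (adjusted p = 0.538) and -0.61 in Trp53(-/-) kidneys (adjusted p = 0.000178), with signals of 6.94 to 7.63 over the AAI kidneys and 7.43 to 8.24 over the water kidneys. Acadsb, for short branched chains, had -0.48 in Trp53(+/+) kidneys (adjusted p = 0.0125), -0.35 in Trp53(+/-) kidneys (adjusted p = 0.194) and -0.37 in Trp53(-/-) kidneys (adjusted p = 0.0573), with signals of 8.55 to 9.43 over the AAI kidneys and 9.06 to 9.62 over the water kidneys. Without Trp53(+/+) water replicate 1 the Acads difference in that genotype passed as well, at -0.38 (adjusted p = 0.0161).

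The remaining mitochondrial enzymes had smaller differences than Hadh and Acadm. Echs1, the short-chain hydratase, fell in all 3 genotypes, with log2 differences of -1.0 in Trp53(+/+) kidneys (adjusted p = 2.81e-07), -0.49 in Trp53(+/-) kidneys (adjusted p = 0.0139) and -0.89 in Trp53(-/-) kidneys (adjusted p = 2.05e-06), with signals of 6.64 to 7.56 over the AAI kidneys and 7.40 to 8.11 over the water kidneys. Acaa2, the thiolase, had -0.65 in Trp53(+/+) kidneys (adjusted p = 0.045), -0.69 in Trp53(+/-) kidneys (adjusted p = 0.0847) and -0.58 in Trp53(-/-) kidneys (adjusted p = 0.0766), with signals of 7.14 to 9.34 over the AAI kidneys and 8.32 to 9.21 over the water kidneys. Only its Trp53(+/+) value passed, and that call was lost when any 1 of 6 arrays was left out (-0.64 to -0.41, adjusted p = 0.0723 to 0.209). The auxiliary enzymes for unsaturated chains were Decr1 and Eci1. Decr1, the dienoyl-CoA reductase, fell throughout, with log2 differences of -0.74 in Trp53(+/+) kidneys (adjusted p = 0.00385), -0.80 in Trp53(+/-) kidneys (adjusted p = 0.00692) and -0.89 in Trp53(-/-) kidneys (adjusted p = 0.000642), with signals of 6.34 to 7.65 over the AAI kidneys and 7.07 to 8.12 over the water kidneys. Eci1, the isomerase, had -0.67 in Trp53(+/+) kidneys (adjusted p = 0.00155), -0.38 in Trp53(+/-) kidneys (adjusted p = 0.199) and -0.51 in Trp53(-/-) kidneys (adjusted p = 0.0163), with signals of 6.72 to 7.97 over the AAI kidneys and 7.41 to 8.09 over the water kidneys. Electrons leave the pathway through the electron transfer flavoprotein and its dehydrogenase. Etfa, its alpha subunit, had log2 differences of -0.90 in Trp53(+/+) kidneys (adjusted p = 7.23e-07), -0.53 in Trp53(+/-) kidneys (adjusted p = 0.00501) and -0.55 in Trp53(-/-) kidneys (adjusted p = 0.00087), with signals of 9.33 to 10.37 over the AAI kidneys and 10.36 to 10.73 over the water kidneys. Etfdh, the dehydrogenase that feeds ubiquinone, had -0.68 in Trp53(+/+) kidneys (adjusted p = 0.000744), -0.47 in Trp53(+/-) kidneys (adjusted p = 0.0521) and -0.56 in Trp53(-/-) kidneys (adjusted p = 0.00477), with signals of 7.09 to 8.13 over the AAI kidneys and 7.66 to 8.37 over the water kidneys. For Etfdh the Trp53(+/-) value missed the threshold.

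Of the carnitine shuttle, the set holds Cpt1a and Cpt2. Cpt1b and Cpt1c, further Cpt1 genes, are read below with the other mitochondrial enzymes. Cpt1a is the outer membrane enzyme that controls entry. Cpt1a gave log2 signals of 8.11, 8.71, 8.46, 8.94 and 9.00 in AAI-exposed Trp53(+/+) kidneys, against 8.69, 8.88, 8.97, 8.86 and 8.71 in water kidneys of that genotype. Cpt1a in Trp53(+/-) mice read 8.79, 8.67, 8.60, 8.40 and 7.98 with AAI, against 8.84, 8.81, 8.98, 8.82 and 9.02 with water. Cpt1a in Trp53(-/-) mice read 8.19, 8.56, 8.66, 9.16 and 8.76 with AAI, against 8.77, 9.06, 8.77, 9.29 and 8.96 with water. AAI and water kidneys overlapped in Trp53(+/+) and Trp53(-/-) mice and did not overlap in Trp53(+/-) mice, and in each genotype the AAI kidneys spanned the wider range. Cpt1a had log2 differences of -0.18 in Trp53(+/+) kidneys (adjusted p = 0.452), -0.41 in Trp53(+/-) kidneys (adjusted p = 0.151) and -0.31 in Trp53(-/-) kidneys (adjusted p = 0.177). Cpt2, on the inner membrane, was lower with AAI. Cpt2 gave log2 signals of 7.81, 7.81, 8.17, 8.57 and 8.17 in AAI-exposed Trp53(+/+) kidneys, against 8.74, 9.31, 9.31, 9.33 and 9.50 in water kidneys of that genotype. Cpt2 in Trp53(+/-) mice read 8.85, 8.23, 8.60, 8.47 and 8.20 with AAI, against 8.97, 8.98, 9.05, 9.27 and 9.26 with water. Cpt2 in Trp53(-/-) mice read 7.67, 7.96, 7.58, 8.25 and 9.03 with AAI, against 8.83, 9.47, 9.03, 9.53 and 8.95 with water. In Trp53(-/-) kidneys AAI replicate 5, at 9.03, overlapped the water range, while in the other genotypes no AAI kidney did. Cpt2 fell 2.19-fold in Trp53(+/+) kidneys (-1.13 ± 0.20, adjusted p = 4.8e-05), 1.55-fold in Trp53(+/-) kidneys (-0.64 ± 0.20, adjusted p = 0.0495) and 2.09-fold in Trp53(-/-) kidneys (-1.06 ± 0.20, adjusted p = 0.000116).

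Hadha and Hadhb, whose starts share a window, encode the protein that carries out the last steps for long chains. Hadha gave log2 signals of 9.41, 9.49, 9.43, 9.60 and 9.27 in AAI-exposed Trp53(+/+) kidneys, against 9.61, 9.72, 9.43, 10.07 and 9.48 in water kidneys of that genotype. Hadha in Trp53(+/-) mice read 9.81, 9.43, 9.47, 9.42 and 9.44 with AAI, against 9.67, 9.60, 9.68, 9.90 and 9.70 with water. Hadha in Trp53(-/-) mice read 9.76, 9.59, 9.41, 9.60 and 10.32 with AAI, against 9.52, 9.65, 9.83, 9.73 and 9.77 with water. AAI and water kidneys overlapped in all genotypes. Hadha had log2 differences of -0.23 in Trp53(+/+) kidneys (adjusted p = 0.219), -0.20 in Trp53(+/-) kidneys (adjusted p = 0.597) and 0.04 in Trp53(-/-) kidneys (adjusted p = 0.886). Hadhb gave log2 signals of 8.58, 8.76, 8.70, 9.49 and 8.87 in AAI-exposed Trp53(+/+) kidneys, against 9.16, 9.21, 9.43, 9.68 and 9.50 in water kidneys of that genotype. Hadhb in Trp53(+/-) mice read 9.24, 9.00, 9.21, 8.85 and 8.87 with AAI, against 9.33, 9.35, 9.47, 9.44 and 9.38 with water. Hadhb in Trp53(-/-) mice read 9.21, 9.02, 9.09, 9.29 and 10.33 with AAI, against 9.21, 9.27, 9.16, 9.32 and 9.30 with water. In Trp53(-/-) kidneys AAI replicate 5 (10.33) stood above every other kidney, and the treatments overlapped there and in Trp53(+/+) mice but not in Trp53(+/-) mice. Hadhb had differences of -0.51 in Trp53(+/+) kidneys (adjusted p = 0.024), -0.36 in Trp53(+/-) kidneys (adjusted p = 0.299) and 0.14 in Trp53(-/-) kidneys (adjusted p = 0.628). Without that array the Trp53(-/-) difference of Hadhb was -0.10, and those of Acadl (-0.49, adjusted p = 0.0231) and Acaa2 (-0.82, adjusted p = 0.00591) passed. That kidney also had the highest adipocyte marker score, 2.03, over all arrays. The part of adipose tissue in its values was not tested.

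**Figure D3:**
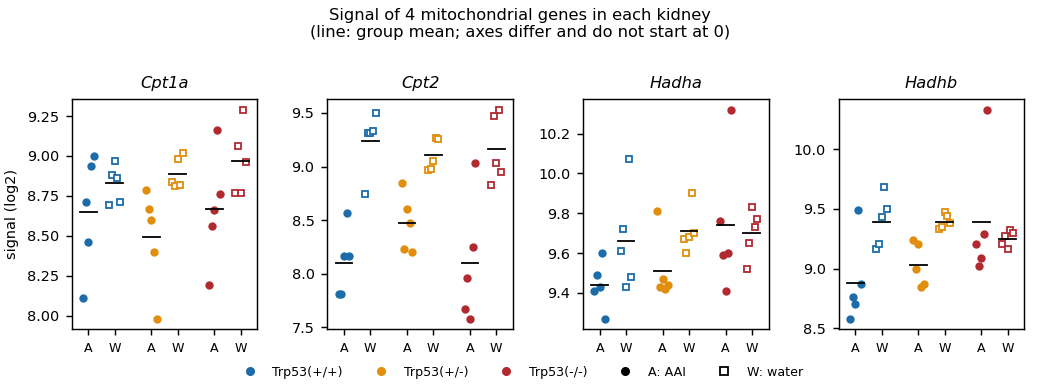
Log2 signal (vertical axis) of Cpt1a, Cpt2, Hadha and Hadhb in each kidney, by genotype with AAI left of water; lines are means of 5 mice. Cpt2 is separate in Trp53(+/+) and Trp53(+/-), Hadha overlaps in every genotype and Cpt1a in Trp53(+/+) and Trp53(-/-), and 1 Trp53(-/-) AAI kidney lies above the rest for Hadha (10.32) and Hadhb (10.33).

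Among the 5 genes of more than 1 compartment, Slc27a2 fell most. Acad11, an acyl-CoA dehydrogenase that handles hydroxylated chains, fell in all genotypes, with log2 differences of -0.97 in Trp53(+/+) kidneys (adjusted p = 8.66e-05), -0.64 in Trp53(+/-) kidneys (adjusted p = 0.0217) and -1.41 in Trp53(-/-) kidneys (adjusted p = 1.99e-07), with signals of 5.78 to 7.48 over the AAI kidneys and 7.29 to 7.91 over the water kidneys. Ech1, a dienoyl-CoA isomerase, fell likewise, with log2 differences of -1.08 in Trp53(+/+) kidneys (adjusted p = 4.58e-05), -0.83 in Trp53(+/-) kidneys (adjusted p = 0.00478) and -1.02 in Trp53(-/-) kidneys (adjusted p = 1e-04), with signals of 8.17 to 9.54 over the AAI kidneys and 9.18 to 10.08 over the water kidneys. The other 2 missed the threshold in at least 1 genotype. Eci2, the isomerase next to Eci3, had -0.47 in Trp53(+/+) kidneys (adjusted p = 0.0466), -0.44 in Trp53(+/-) kidneys (adjusted p = 0.158) and -0.66 in Trp53(-/-) kidneys (adjusted p = 0.00425), with signals of 7.21 to 8.20 over the AAI kidneys and 7.57 to 8.64 over the water kidneys. Crat, the acetylcarnitine transferase, had -0.50 in Trp53(+/+) kidneys (adjusted p = 0.0366), -0.46 in Trp53(+/-) kidneys (adjusted p = 0.133) and -0.39 in Trp53(-/-) kidneys (adjusted p = 0.114), with signals of 7.04 to 8.48 over the AAI kidneys and 7.81 to 8.45 over the water kidneys. Without Trp53(-/-) AAI replicate 5 the Crat difference in that genotype passed, at -0.59 (adjusted p = 0.0048).

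Set side by side, peroxisomal genes had the lower medians. The median AAI minus water difference of the 13 peroxisomal genes was -0.97 in Trp53(+/+) mice, -0.70 in Trp53(+/-) mice and -1.13 in Trp53(-/-) mice. For the 16 mitochondrial genes it was -0.67 in Trp53(+/+) mice, -0.48 in Trp53(+/-) mice and -0.55 in Trp53(-/-) mice, and for the 5 shared genes -0.97 in Trp53(+/+) mice, -0.64 in Trp53(+/-) mice and -1.02 in Trp53(-/-) mice. With a batch term the Trp53(+/-) medians ran from -1.16 to -0.39 for peroxisomal and from -0.92 to -0.02 for mitochondrial genes, and with Trp53(+/+) AAI replicate 3 in batch 2 the order turned, at -0.39 for peroxisomal and -0.57 for mitochondrial genes. The median of all genes tested was -0.03 in Trp53(+/+) mice, 0.00 in Trp53(+/-) mice and -0.01 in Trp53(-/-) mice. A fall of at least 2-fold in Trp53(+/+) kidneys was seen for 6 of the 13 peroxisomal and 3 of the 16 mitochondrial genes. Within Trp53(+/+) kidneys 11 of 13 peroxisomal and 7 of 16 mitochondrial genes had no overlap between AAI and water (20 of 34 in all, background 8.11%). There were 23 such genes in Trp53(+/-) (background 4.26%) and 17 in Trp53(-/-) kidneys (7.63%). In every genotype at once the 11 without overlap were Acadm and Hadh of mitochondria, Abcd3, Acox2, Acox3, Ehhadh, Hsd17b4, Scp2, Eci3 and Crot of peroxisomes, and Slc27a2. For this joint count the share over all genes was not computed. No test was made between the compartments, since their genes share the same kidneys.

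A score per kidney, the mean deviation of a list's genes from their own average over the 30 arrays, puts the members on 1 scale for each mouse. The peroxisomal score was -1.07 to -0.51 with AAI, against 0.56 to 0.89 with water, in Trp53(+/+) mice. It was -0.48 to 0.01 with AAI and 0.47 to 0.68 with water in Trp53(+/-) mice, and -1.19 to -0.73 with AAI and 0.29 to 0.67 with water in Trp53(-/-) mice. The mitochondrial score was closer together: -0.76 to 0.01 with AAI against 0.07 to 0.42 with water in Trp53(+/+), -0.36 to -0.00 with AAI against 0.21 to 0.38 with water in Trp53(+/-), and -0.54 to 0.17 with AAI against 0.14 to 0.42 with water in Trp53(-/-) mice. In Trp53(-/-) mice alone did the mitochondrial scores of the treatments overlap, through AAI replicate 5.

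Markers of kidney cell types moved with these genes. Of 19 proximal tubule markers, 18 fell in Trp53(+/+) mice, 14 in Trp53(+/-) mice and 19 in Trp53(-/-) mice, with medians of -1.80 in Trp53(+/+) mice, -0.85 in Trp53(+/-) mice and -2.08 in Trp53(-/-) mice. Their score was -1.51 to -0.22 with AAI against 0.82 to 1.20 with water in Trp53(+/+), -0.43 to 0.23 with AAI against 0.74 to 0.86 with water in Trp53(+/-), and -1.76 to -1.18 with AAI against 0.69 to 0.89 with water in Trp53(-/-) mice. All 6 markers of injured tubule rose in each genotype, among them Lcn2, by 6.61 in Trp53(+/+) mice, 3.13 in Trp53(+/-) mice and 6.11 in Trp53(-/-) mice, and their score was 1.01 to 2.35 with AAI against -2.54 to -1.41 with water in Trp53(+/+), 0.72 to 1.20 with AAI against -1.31 to -0.67 with water in Trp53(+/-), and 1.87 to 2.29 with AAI against -1.37 to -0.71 with water in Trp53(-/-) mice. Of 10 macrophage markers, 9 rose in Trp53(+/+) mice, 5 in Trp53(+/-) mice and 8 in Trp53(-/-) mice. Of 9 fibroblast and myofibroblast markers, 9 rose in Trp53(+/+) mice, 6 in Trp53(+/-) mice and 9 in Trp53(-/-) mice. The 6 endothelial markers all rose in Trp53(-/-) and Trp53(+/+) mice, and 0 of 6 passed in Trp53(+/-) mice. Of 5 podocyte markers, 5 rose in Trp53(+/+) mice, 0 in Trp53(+/-) mice and 2 in Trp53(-/-) mice. Of 11 collecting duct markers, 4 rose in Trp53(+/+) mice, 1 in Trp53(+/-) mice and 5 in Trp53(-/-) mice, where 1 also fell. Of 7 thick ascending limb and distal convoluted tubule markers, 2 rose in Trp53(+/+) mice, 0 in Trp53(+/-) mice and 2 in Trp53(-/-) mice, and 1 fell in each genotype. No T or B cell marker of 8 passed, and of 6 adipocyte markers 2 passed as higher in Trp53(-/-) mice and 0 in each of the other genotypes, while 0 of 6 passed in any difference of AAI effects. The adipocyte score was 0.91 and 2.03 in AAI-exposed Trp53(-/-) replicates 1 and 5 and -0.48 to -0.08 in the others, and water kidneys reached 1.76 in Trp53(+/+) and 1.35 in Trp53(+/-) mice. The part of cell type makeup in the falls of the oxidation genes was not tested.

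**Figure D4:**
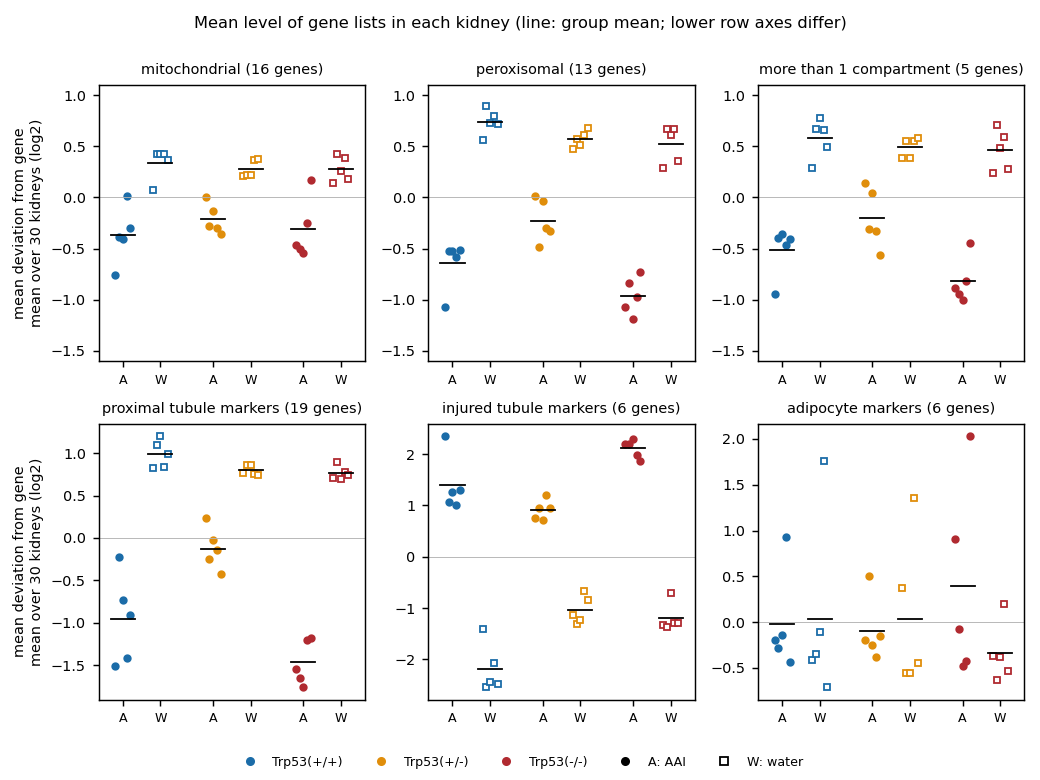
Mean deviation (log2, vertical axis) of each list's genes from their average over all arrays, per kidney, by genotype with AAI left of water, for mitochondrial, peroxisomal and shared genes and for proximal tubule, injured tubule and adipocyte markers; lines are means of 5 mice. Peroxisomal and proximal tubule scores lie lower with AAI in every genotype, and the adipocyte score reaches 2.03 in Trp53(-/-) AAI replicate 5.

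The AAI response of a few members differed in the contrasts with Trp53(+/-) kidneys, where batch and treatment cannot be told apart. The difference of AAI effects, Trp53(+/-) minus Trp53(+/+), was positive and passed for 4 of 34 genes (0.894% of all genes passed in that direction). Their measured fall was thus shallower in Trp53(+/-) kidneys. It was 2.00 for Eci3 (95% interval 1.30 to 2.69, adjusted p = 0.00261), 1.66 for Acox2 (95% interval 1.09 to 2.23, adjusted p = 0.00222), 1.34 for Slc27a2 (95% interval 0.81 to 1.87, adjusted p = 0.00484) and 0.99 for Crot (95% interval 0.53 to 1.45, adjusted p = 0.0152). Ehhadh did not pass, at 0.96 (95% interval 0.06 to 1.85, adjusted p = 0.421). Comparing Trp53(-/-) with Trp53(+/-), 5 genes had a deeper measured fall in Trp53(-/-) kidneys (background 1.45%): -2.03 for Eci3 (95% interval -2.72 to -1.33, adjusted p = 0.000866), -1.80 for Slc27a2 (95% interval -2.33 to -1.27, adjusted p = 0.000208), -1.36 for Acox2 (95% interval -1.93 to -0.79, adjusted p = 0.00503), -0.95 for Acox3 (95% interval -1.33 to -0.57, adjusted p = 0.00386) and -0.81 for Crot (95% interval -1.27 to -0.35, adjusted p = 0.0455). Both contrasts use the same Trp53(+/-) arrays. Other genes passed in the same directions: for Trp53(+/-) minus Trp53(+/+), 7 of 19 proximal tubule markers and 8 of 28 other peroxisomal genes were positive, and for Trp53(-/-) minus Trp53(+/-), 12 of 19 and 7 of 28 were negative. Of 6 injured tubule markers, 3 had a smaller rise in Trp53(+/-) than in Trp53(+/+) mice and 3 a larger one in Trp53(-/-) than in Trp53(+/-) mice. The part of cell type makeup in these differences was not tested.

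Between Trp53(-/-) and Trp53(+/+) no member's AAI effect passed (0.104% of all genes did, in either direction), and 2 had an unadjusted p under 0.05 (background 7.61%), Hadhb and Decr2. The difference was 0.65 for Hadhb (95% interval 0.15 to 1.15, adjusted p = 0.51) and -0.41 for Decr2 (95% interval -0.76 to -0.05, adjusted p = 0.585). For the deepest fallers it was -0.03 for Eci3 (95% interval -0.73 to 0.66, adjusted p = 0.992), 0.30 for Acox2 (95% interval -0.27 to 0.87, adjusted p = 0.845), -0.46 for Slc27a2 (95% interval -0.99 to 0.07, adjusted p = 0.707) and -0.14 for Ehhadh (95% interval -1.03 to 0.75, adjusted p = 0.97). These intervals leave room for differences in either direction and do not show equal responses.

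The contrasts with Trp53(+/-) cannot be told apart from batch, and a batch term does not settle this. The term is set by 1 AAI-exposed Trp53(+/+) array against the other 4 of its group, so it also carries the spread between single mice. With a batch term, the Trp53(+/-) against Trp53(+/+) difference passed for 0, 3, 0, 0 and 0 members, and the Trp53(-/-) against Trp53(+/-) difference for 0, 3, 1, 0 and 1, with Trp53(+/+) AAI replicate 1, 2, 3, 4 and 5 in batch 2. Over these fits the Trp53(+/-) against Trp53(+/+) difference of Eci3 ran between 0.62 and 3.30 and that of Acox2 between 0.88 and 2.97, above 0 in each. A comparison that stays in batch 1 is that of AAI-exposed Trp53(+/-) with Trp53(+/+) water kidneys: 25 of 34 members passed as lower (background 9.56%), all 34 were below 0, and the differences were -2.32 for Eci3, -1.79 for Acox2, -1.54 for Slc27a2, -2.02 for Ehhadh, -1.34 for Crot and -1.06 for Hadh. That comparison mixes genotype with treatment. In Trp53(-/-) against Trp53(+/-), the Crot call was lost when any 1 of 17 arrays was left out (-0.83 to -0.69, adjusted p = 0.0504 to 0.111). Decr2 passed there without Trp53(-/-) AAI replicate 5 (-0.65, adjusted p = 0.0297), and Acad11 without that array or Trp53(+/-) AAI replicate 5 (-0.95 to -0.89, adjusted p = 0.0181 to 0.0484). In Trp53(+/-) against Trp53(+/+), Hadh passed without Trp53(+/+) water replicate 1 (0.91, adjusted p = 0.041), and Acox3 when any 1 of 7 arrays was left out (0.67 to 0.77, adjusted p = 0.0227 to 0.0497).

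**Figure D5:**
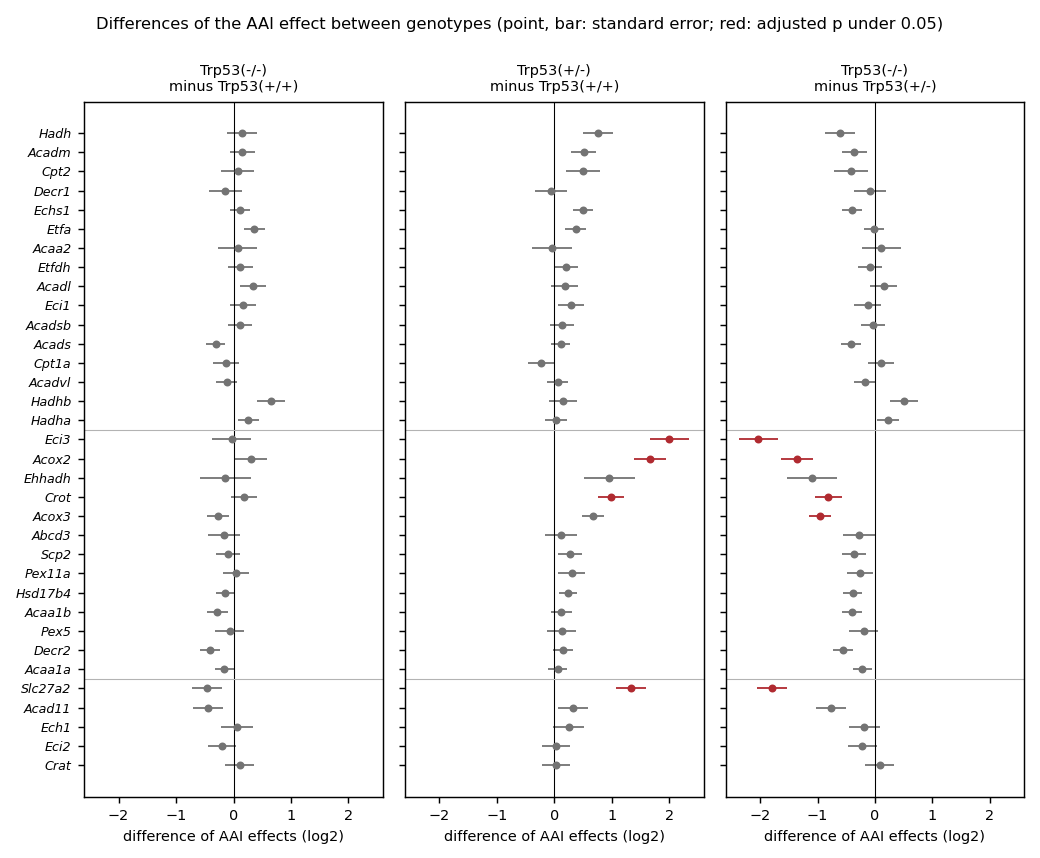
Difference of AAI effects between genotypes (log2, horizontal axis, points with SE bars) for the 34 genes in 3 panels: Trp53(-/-) minus Trp53(+/+), Trp53(+/-) minus Trp53(+/+), and Trp53(-/-) minus Trp53(+/-); red marks an adjusted p under 0.05. Eci3, Acox2, Slc27a2 and Crot are red in both panels with Trp53(+/-), Acox3 in the last, and none in the first.

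Levels among AAI-exposed kidneys were compared directly as well. AAI-exposed Trp53(+/-) kidneys were higher than AAI-exposed Trp53(+/+) kidneys for 4 members (background 1.07%), by 1.54 for Eci3 (adjusted p = 0.000816), 1.16 for Acox2 (adjusted p = 0.00163), 0.91 for Slc27a2 (adjusted p = 0.00606) and 0.69 for Crot (adjusted p = 0.0187). This comparison lies in batch 1 but for 1 array, and with a batch term 3 members passed with Trp53(+/+) AAI replicate 1 in batch 2 and 4 with any other. In a limma fit of only these groups 0 members passed (adjusted p = 0.0837 to 0.146 for these 4) and 9 had an unadjusted p under 0.05, and plain analysis of variance gave 0 after adjustment. In this comparison 8 of 19 proximal tubule markers were also higher, and their part was not tested. AAI-exposed Trp53(-/-) kidneys were lower than AAI-exposed Trp53(+/-) kidneys for 12 members (background 4.85%), led by -2.10 for Eci3 (adjusted p = 4.72e-07), -1.81 for Slc27a2 (adjusted p = 5.7e-08), -1.64 for Acox2 (adjusted p = 8.66e-07), -1.17 for Ehhadh (adjusted p = 0.0114) and -0.91 for Crot (adjusted p = 0.000173), and including -0.78 for Acad11 (adjusted p = 0.0035), -0.75 for Acox3 (adjusted p = 0.000179), -0.56 for Hadh (adjusted p = 0.045), -0.48 for Scp2 (adjusted p = 0.03), -0.44 for Acaa1b (adjusted p = 0.0223), -0.41 for Decr2 (adjusted p = 0.0271) and -0.37 for Acads (adjusted p = 0.043). Here genotype and batch cannot be told apart, and 0 to 4 members passed with a batch term and 5 by plain analysis of variance. Of 19 proximal tubule markers 15 were also lower. Against AAI-exposed Trp53(+/+) kidneys, the Trp53(-/-) ones were lower for 1 member, Slc27a2 (background 1.28%), by a log2 difference of -0.90 (adjusted p = 0.00391). With a batch term 2 members passed there with Trp53(+/+) AAI replicate 2 in batch 2 and 0 with any other, and plain analysis of variance gave 0, with 0.175 for Slc27a2.

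Peroxisomal means followed one order across the AAI groups: for 12 of 13 genes the mean was lowest in Trp53(-/-), and for 12 of 13 it was highest in Trp53(+/-) kidneys. Among the 16 mitochondrial genes the lowest mean was in Trp53(+/+) for 9, in Trp53(+/-) for 2 and in Trp53(-/-) for 5. The order is a description, and the tests of each step are the comparisons of AAI-exposed kidneys given before it. No background over all genes is given for it. Mean scores with AAI had the same order for proximal tubule markers (Trp53(+/-) -0.13, Trp53(+/+) -0.96, Trp53(-/-) -1.46). So did those for genes of more than 1 compartment (Trp53(+/-) -0.20, Trp53(+/+) -0.51, Trp53(-/-) -0.82). AAI-exposed Trp53(-/-) arrays all lay in batch 2, and the other AAI arrays in batch 1 but for 1. The lowest place therefore cannot be told apart from batch. In water kidneys no member passed between genotypes (limma; background 0.235% for Trp53(+/-) against Trp53(+/+), 0.641% for Trp53(-/-) against Trp53(+/+) and 0% for Trp53(-/-) against Trp53(+/-)). At an unadjusted p under 0.05 there were 3 in the first of these (background 11.2%: Etfdh -0.33, Acox2 -0.51 and Slc27a2 -0.43), 5 in the next (background 14.8%: Acox2 -0.78, Eci3 -0.52, Crot -0.39, Pex5 -0.40 and Slc27a2 -0.44) and 0 in the last (background 4.57%), which is the 1 comparison wholly in batch 2.

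Genes around the pathway, from lists drawn up by role, were read in the same way. Of 6 regulators of fatty acid oxidation, 5 fell in Trp53(+/+) mice, 1 in Trp53(+/-) mice and 4 in Trp53(-/-) mice. Ppara, the nuclear receptor that drives transcription of oxidation genes, was the one that fell throughout, with log2 differences of -1.03 (adjusted p = 0.000693) in Trp53(+/+) mice, -0.87 (adjusted p = 0.014) in Trp53(+/-) mice and -1.48 (adjusted p = 5.39e-06) in Trp53(-/-) mice. Other mitochondrial fatty acid and branched-chain enzymes (18 genes) fell in 10 cases in Trp53(+/+) mice, 6 in Trp53(+/-) mice and 11 in Trp53(-/-) mice, and 1 rose in Trp53(+/+) and in Trp53(-/-) kidneys, with medians of -0.48 in Trp53(+/+) mice, -0.31 in Trp53(+/-) mice and -0.49 in Trp53(-/-) mice. Those that rose were Cpt1c in Trp53(+/+) kidneys (0.41, adjusted p = 0.0357) and Cpt1b in Trp53(-/-) kidneys (0.63, adjusted p = 0.00541). Of this list Pcca, a subunit of propionyl-CoA carboxylase, differed by -1.62 in Trp53(+/+) mice, -0.88 in Trp53(+/-) mice and -1.28 in Trp53(-/-) mice. Acat1, the acetoacetyl-CoA thiolase, differed by -1.51 in Trp53(+/+) mice, -0.80 in Trp53(+/-) mice and -1.11 in Trp53(-/-) mice. Hibch, a hydrolase of valine breakdown, differed by -1.50 in Trp53(+/+) mice, -0.78 in Trp53(+/-) mice and -1.09 in Trp53(-/-) mice. Both ketone body genes measured, Bdh1 and Oxct1, fell in all 3 genotypes, Bdh1 with log2 differences of -1.40 in Trp53(+/+) mice, -0.81 in Trp53(+/-) mice and -1.27 in Trp53(-/-) mice.

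Other peroxisomal enzymes and transporters (28 genes) had medians close to those of the peroxisomal members, -0.96 in Trp53(+/+) mice, -0.67 in Trp53(+/-) mice and -1.20 in Trp53(-/-) mice, with 20 falling in Trp53(+/+) mice, 18 in Trp53(+/-) mice and 24 in Trp53(-/-) mice, while none rose. Hao2, an oxidase of hydroxy acids, differed by -2.93 in Trp53(+/+) mice, -1.30 in Trp53(+/-) mice and -2.63 in Trp53(-/-) mice. Nudt19, which cleaves coenzyme A, differed by -2.63 in Trp53(+/+) mice, -1.28 in Trp53(+/-) mice and -2.37 in Trp53(-/-) mice. Amacr, the racemase for branched chains, differed by -2.55 in Trp53(+/+) mice, -1.34 in Trp53(+/-) mice and -2.25 in Trp53(-/-) mice. All 3 passed in each genotype. The 11 other peroxins, which build the organelle, fell in 2 cases in Trp53(+/+) mice, 0 in Trp53(+/-) mice and 3 in Trp53(-/-) mice, with medians of -0.21 in Trp53(+/+) mice, -0.09 in Trp53(+/-) mice and -0.25 in Trp53(-/-) mice. No test was made between these lists. Of 12 genes of fatty acid uptake and activation, 5 fell in Trp53(+/+) mice, 4 in Trp53(+/-) mice and 4 in Trp53(-/-) mice, and 2 rose in each genotype. The medium-chain activating enzymes fell in all 3 genotypes, in Trp53(+/+) kidneys with log2 differences of -2.55 for Acsm1, -2.62 for Acsm2 and -3.17 for Acsm3. Lipid droplet genes (14) fell in 1 case in Trp53(+/+) and 1 in Trp53(-/-) kidneys, and 2 rose in Trp53(+/+) mice, 1 in Trp53(+/-) mice and 3 in Trp53(-/-) mice, with Plin2, the droplet coat protein, higher by 1.32 in Trp53(+/+) mice, 0.68 in Trp53(+/-) mice and 0.73 in Trp53(-/-) mice. Of 7 genes of fatty acid synthesis 1 fell in each genotype, Me1, the cytosolic malic enzyme, with log2 differences of -1.90 in Trp53(+/+) mice, -0.86 in Trp53(+/-) mice and -1.61 in Trp53(-/-) mice.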

How the data were processed

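RNA from a portion of kidney of each of 30 mice was measured on mouse Clariom S arrays. The deposited values were log2 signals that the authors summarised and normalised with RMA in the Transcriptome Analysis Console, whose versions are not given in the sources used here. The table held 22206 transcript clusters, of which 19572 had a gene symbol in the platform annotation and 2634 had none. Where a symbol had several clusters, that with the highest mean was kept, which left out 67 and gave 22139 for testing. No dim clusters were removed, and each of the 34 members passed the dim filter of an alternative, a mean of at least log2 4.58 in 1 or more groups. The number of arrays limits the precision.

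Each group had its own mean in a fit of all arrays with limma 3.58.1 (R 4.3.3, 24 residual and 7.21 prior degrees of freedom; statmod 1.5.0 for blocks). Contrasts were AAI minus water per genotype, genotype differences within each treatment and differences of AAI effects. P-values were adjusted over all 22139 clusters by the Benjamini-Hochberg method, at a threshold of 0.05. Errors are SE of the fitted difference. The study's own tests were an analysis of variance with limits on p, fold change and the false discovery rate, with batch effects removed. They were not repeated as such. Batch is not in the labels of the arrays and was read from the study's clustering figure, which shows that 1 of the 5 AAI-exposed Trp53(+/+) arrays was in batch 2 but not which, so each of the 5 was tried. The fit was tested on simulated data.

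All measured members are named. Of the other gene lists, up to 3 genes are named with the largest mean AAI effect among those passing in all 3 genotypes in the same direction, and of marker lists up to 2. Cpt1b and Cpt1c are named besides, as Cpt1 genes that passed as higher in 1 genotype each. The members, lists and rules were chosen with earlier results of these data known. Other lists were regulators, other mitochondrial enzymes, ketone body genes, uptake and activation, other peroxisomal enzymes, other peroxins, lipid droplets, fatty acid synthesis and markers of 10 cell types or states. Promoter windows came from RefSeq on GRCm38.p6. Alternatives were a batch term, a replicate block, only the groups compared, array weights, a dim filter, other thresholds, plain analysis of variance and leaving out each array. The threshold of an adjusted p under 0.05 with at least 2-fold was added after seeing the data.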

Additional observations from a re-analysis of the deposited data

Results flagged for a closer look

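Sets of 5 kidneys (each member in each group) share the same arrays, so their outlier rate is no test of an excess. Of 204 such sets, 22 (10.8%) held 1 kidney far from the others, where chance gives about 1 in 20 for independent sets. Trp53(+/+) water replicate 1 accounted for 7 of them, always as the lowest of its group: Cpt2 8.74 (others 9.31 to 9.50), Acadm 9.16 (9.72 to 9.90), Hadh 9.66 (10.36 to 10.48), Ehhadh 9.19 (10.26 to 10.67), Eci3 9.86 (10.56 to 10.70), Slc27a2 11.62 (12.09 to 12.22) and Ech1 9.18 (9.87 to 10.08). The injured tubule score of that kidney was -1.41, the highest of its group. Trp53(-/-) AAI replicate 5 accounted for 5, always as the highest: Acadvl 6.82 (others 6.49 to 6.57), Acadl 9.11 (8.50 to 8.60), Hadhb 10.33 (9.02 to 9.29), Etfa 10.37 (9.78 to 9.92) and Hsd17b4 8.21 (7.82 to 7.92).

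The other 10 were spread over 9 kidneys. With AAI they were Acadvl 7.21 in Trp53(+/+) replicate 4, Crot 7.21 in Trp53(+/+) replicate 1, Hadha 9.81 in Trp53(+/-) replicate 1 and Crat 7.21 in Trp53(+/-) replicate 5. With water they were Echs1 7.59 in Trp53(-/-) replicate 1, Acox3 8.26 in Trp53(+/-) replicate 2, Acaa1b 8.87 and Slc27a2 11.43 in Trp53(+/-) replicate 1, Decr2 7.73 in Trp53(+/+) replicate 5 and Decr2 8.23 in Trp53(+/-) replicate 5.

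The AAI effects of 5 members differed between genotypes in the limma test of the difference itself. Trp53(+/-) minus Trp53(+/+) was 1.66 for Acox2, 2.00 for Eci3, 0.99 for Crot and 1.34 for Slc27a2. Trp53(-/-) minus Trp53(+/-) was -1.36 for Acox2, -0.95 for Acox3, -2.03 for Eci3, -0.81 for Crot and -1.80 for Slc27a2. All 9 involve the Trp53(+/-) mice, in which batch and treatment cannot be told apart.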

How the results depend on the processing

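In the AAI comparisons 0 members changed sign under any alternative in Trp53(+/+) kidneys. In Trp53(-/-) kidneys Hadha (0.04) and Hadhb (0.14), which had not passed, became -0.11 and -0.10 without AAI replicate 5, and Hadha also turned negative without water replicate 1 (-0.01), with array weights (-0.02) and with centred arrays (-0.02). In Trp53(+/-) kidneys 10 members turned positive under a batch term, among them 3 that had passed: Acadl 0.23 and Etfa 0.03 with Trp53(+/+) AAI replicate 4 in batch 2 and Decr1 0.09 with replicate 5. The other 7 reached at most 0.47 (Acadvl). Differences of AAI effects changed sign in 94 of 510 values with a batch term, 81 of 3060 without 1 array and 5 of 1020 under the rest. Calls were also counted for each gene, comparison and setting. Alternatives other than leaving out an array left 2882 as they were, lost a further 259 and gained 52. Leaving out 1 array left 5968 as they were, lost 111 and gained 41. The 259 include the rules of at least 2-fold, which drop smaller differences by their own terms, and the batch terms.

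With a batch term and replicate 1, 2, 3, 4 and 5 of AAI-exposed Trp53(+/+) in batch 2, the members passing in Trp53(+/-) were 17, 0, 0, 1 and 0. For the difference of AAI effects they were 0, 3, 0, 0 and 0 for Trp53(+/-) against Trp53(+/+) and 0, 3, 1, 0 and 1 for Trp53(-/-) against Trp53(+/-). In AAI kidneys they were 0, 2, 0, 0 and 0 for Trp53(-/-) against Trp53(+/+) and 0, 4, 4, 1 and 1 for Trp53(-/-) against Trp53(+/-), and in water kidneys 1 for Trp53(-/-) against Trp53(+/+) with replicate 2. The Trp53(+/-) medians moved to -0.92 (mitochondrial) and -1.16 (peroxisomal) with replicate 1, to -0.39 (peroxisomal) with replicate 3 and to -0.02 (mitochondrial) with replicate 4. The batch term in each of these fits is set by the 1 array assigned, against the other 4 of its group. Such shifts therefore also carry the spread between single mice.

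A fit of only the groups compared gave 0 members for Trp53(+/-) against Trp53(+/+) in AAI kidneys and 1 for Trp53(-/-) against Trp53(+/+) in water kidneys. An unadjusted p under 0.05 with at least 2-fold gave 11, 5 and 13 members in Trp53(+/+), Trp53(+/-) and Trp53(-/-), and in AAI kidneys 2 for Trp53(+/-) against Trp53(+/+), 0 for Trp53(-/-) against Trp53(+/+) and 4 for Trp53(-/-) against Trp53(+/-). The adjusted p with at least 2-fold gave 11, 5 and 13 again, and 3 for the difference of AAI effects of Trp53(-/-) against Trp53(+/-). These follow from the stricter rule. Plain analysis of variance gave 0, 0 and 5 members for the same 3 AAI comparisons and 1 for Trp53(-/-) against Trp53(+/+) in water kidneys.

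Without 1 array, 22 to 30 members passed in Trp53(+/+), 15 to 22 in Trp53(+/-) and 24 to 30 in Trp53(-/-), 4 to 6 in each difference of AAI effects with Trp53(+/-) and 0 in that of Trp53(-/-) against Trp53(+/+). In AAI kidneys 3 to 4 passed for Trp53(+/-) against Trp53(+/+), 1 to 3 for Trp53(-/-) against Trp53(+/+) and 8 to 15 for Trp53(-/-) against Trp53(+/-). For Trp53(-/-) against Trp53(+/+), 3 passed without AAI-exposed Trp53(+/+) replicate 1 or Trp53(-/-) replicate 5, and 2 without Trp53(+/+) replicate 4 or Trp53(+/-) replicate 5. In water kidneys 0 to 1 passed for Trp53(-/-) against Trp53(+/+). The peroxisomal median ran over -1.06 to -0.87 in Trp53(+/+), -0.75 to -0.67 in Trp53(+/-) and -1.19 to -1.02 in Trp53(-/-), and the mitochondrial one over -0.77 to -0.58, -0.53 to -0.43 and -0.67 to -0.48.

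The replicate numbers only name the mice: arrays with the same number did not deviate together (median r -0.00597 over 75 pairs, -0.000231 over 300 others). With the replicate number as a block, 28, 19 and 27 members passed in Trp53(+/+), Trp53(+/-) and Trp53(-/-), and the differences of AAI effects gave 5, 0 and 4. The 5 mice a group limit the precision of each difference, which its interval gives.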
